A study of Mus musculus with 6 samples.

Results

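The mitochondrial ribosomal protein genes were examined in mouse liver lymphocytes after tamoxifen or oil. The set holds the 76 genes of the deposited count table whose symbol begins with Mrpl or Mrps and a number and that had 60 or more counts summed over the 6 libraries, out of 15601 genes in all. Of 77 such symbols, 1 fell short, Mrps36, with 40 counts; the member nearest to the minimum was Mrpl53, with 219. The table held no symbol of this form marked as a pseudogene.

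Mitochondria carry their own ribosomes, which translate the few proteins encoded by mitochondrial DNA, all of them subunits of the respiratory chain and of ATP synthase. The ribosomal RNAs of these particles come from mitochondrial DNA, whereas every protein of the particle is encoded in the nucleus, made in the cytosol and imported. The large subunit (mostly Mrpl genes) forms peptide bonds, and the small subunit (mostly Mrps genes) reads the message. Some of the proteins descend from those of bacterial ribosomes and others exist only in mitochondria. Lymphocytes that are activated or become memory cells are known to change their mitochondrial mass and respiration.

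There were 3 libraries from mice given tamoxifen, an oestrogen receptor ligand often given to switch on inducible Cre recombinases, and 3 from mice given oil, its vehicle. The labels name liver lymphocytes, while the title speaks of ILC1s (type 1 innate lymphoid cells). Genotype, age, dose, animals per library and cells per library were not given in the sources used here. Since no label ties a library to its own animal, each p-value measures only how far these libraries spread, and that spread may be technical. Libraries are numbered 1, 2 and 3 as in the sample titles; the matching columns of the deposited table are numbered 1, 3 and 4. RNA was reverse transcribed in cell lysate with a SMARTer kit and the cDNA amplified by PCR, per the labels' protocols.

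Library totals were 5289803 to 6325899 counts. The 8 ILC1 and natural killer cell markers listed for this work were all present, with Ncr1, the gene of the receptor NKp46, at 1241 ± 91.1 CPM (counts scaled to a common library size) in tamoxifen and 1227 ± 127 CPM in oil (SD, n = 3 each). Markers of other cells were present at lower summed levels: T cells at 229 to 419 CPM in tamoxifen and 203 to 314 in oil (6 of 7 genes in the table). Over all 6 libraries, B cell markers summed to 366 to 486 CPM (2 of 5 in the table), macrophage markers to 25.3 to 37.8 (5 of 6) and hepatocyte markers to 20.7 to 34.6 (4 of 6, with albumin at 0 in 4 libraries). In bulk libraries, fewer cells of a type and less RNA per cell cannot be told apart.

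About as many promoters of these genes held at least 1 of 3 short motifs as held none, a feature that the choice by symbol did not use. Of the 76 genes, 67 had a promoter in the RefSeq table (250 bases before to 50 after the annotated start, build GRCm38.p6). The motif of the factor NRF1 (GCGCA, any base, then GCGC), an activator of nuclear genes for mitochondrial proteins, was found on either strand in 13 of the 67 (19.4%), against 5.19% of 27025 genes with a promoter in the table. The ETS motif CCGGAAGT, bound by GABP, another activator of such genes, was found in 12 (17.9%), against 4.31%. The motif AAGATGGC, a core of YY1 sites, was also found in 12 (17.9%), against 3.19%. At least 1 of the 3 motifs was present in 34 of the 67 promoters (50.7%), against 11.7% of all. Promoters of expressed genes were not set apart from the rest in these shares. No motif is contained in another, and a match is a description of the sequence and not of binding. One promoter is shown for each motif, 5′ to 3′ on the gene's strand, with the motif in capitals. The NRF1 motif of Mrpl12 lies on the opposite strand, so the capitals there show its reverse complement. Mrpl12 (NRF1 motif, chr11:120484387-120484686, plus strand) encodes a stalk protein, Mrpl18 (ETS motif, chr17:12916042-12916341, minus strand) a large subunit protein, and Mrpl42 (YY1 motif, chr10:95501900-95502199, minus strand) the member with the highest FPKM.
Mrpl12: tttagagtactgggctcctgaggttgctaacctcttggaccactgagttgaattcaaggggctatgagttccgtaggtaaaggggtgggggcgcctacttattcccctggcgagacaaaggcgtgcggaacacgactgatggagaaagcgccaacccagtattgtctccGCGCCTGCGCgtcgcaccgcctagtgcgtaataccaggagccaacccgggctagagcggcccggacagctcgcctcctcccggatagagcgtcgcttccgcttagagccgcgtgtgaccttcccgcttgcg
Mrpl18: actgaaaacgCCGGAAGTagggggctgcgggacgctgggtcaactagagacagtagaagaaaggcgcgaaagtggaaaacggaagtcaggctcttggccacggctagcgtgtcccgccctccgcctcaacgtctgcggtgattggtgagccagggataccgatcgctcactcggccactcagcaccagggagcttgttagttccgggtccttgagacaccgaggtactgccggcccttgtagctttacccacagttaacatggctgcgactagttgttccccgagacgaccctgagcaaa
Mrpl42: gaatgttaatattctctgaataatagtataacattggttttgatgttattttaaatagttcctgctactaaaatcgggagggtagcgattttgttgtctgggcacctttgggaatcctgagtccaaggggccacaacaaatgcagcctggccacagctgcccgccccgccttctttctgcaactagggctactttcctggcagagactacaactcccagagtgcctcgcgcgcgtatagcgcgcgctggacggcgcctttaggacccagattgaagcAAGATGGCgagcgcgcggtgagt

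By the RefSeq start site, the NRF1 motif of Mrpl12 began 81 bases before it and the ETS motif of Mrpl18 began 240 bases before it. The YY1 motif of Mrpl42 began at base 28 of the transcript. In the count table and in GENCODE M21, Mrpl18 starts at 12916345, upstream of the printed window, so its motif lies within the gene by those coordinates. The members with each motif did not stand out in the comparison of tamoxifen with oil. Their median log2 fold change was 0.06 with the NRF1 motif and 0.02 without it, 0.10 with the ETS motif and 0.02 without it, and 0.08 with the YY1 motif and 0.04 without it. The members also often share a promoter region with another gene. For 18 of the 76 (23.7%), a coding gene on the opposite strand starts within 1000 bases upstream in GENCODE M21, against 11.8% of the 9933 coding genes tested. Examples are Mrps12, which lies 172 bases from Sars2, the gene of the mitochondrial seryl-tRNA synthetase, Mrps27, 81 bases from Ptcd2, and Mrpl49, 59 bases from Fau, which encodes a cytosolic ribosomal protein. Of the 17 partners that were tested, 9 had a higher and 8 a lower estimate in tamoxifen, 10 had the same sign as their member, and 1 (Cyb5rl, beside Mrpl37) had an unadjusted p under 0.05. The 76 genes lie on 17 chromosomes, with 10 on chromosome 11 and 8 on chromosome 17.

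All 76 genes were expressed in every library, at levels that differed widely between genes. The authors' FPKM values, which are per length and so allow genes to be compared, had a median of 27.6 over the members (mean of 6 libraries each), against 5.89 over all 10811 genes tested. The large subunit (50 genes, counting Mrps30 and Mrps18a, whose products sit there) had a median of 28.6 FPKM and the small subunit (26 genes) 26.0 FPKM. Mrpl42, which encodes a mitochondria-specific protein, was the highest, at 264 ± 44.7 FPKM in tamoxifen and 266 ± 72.3 FPKM in oil (SD, n = 3 each, as for the levels that follow). Mrpl4, which encodes a protein of bacterial descent near the exit tunnel, stood at 189 ± 27.7 FPKM in tamoxifen and 188 ± 33.9 FPKM in oil. Mrps16 stood at 185 ± 16.0 FPKM in tamoxifen and 175 ± 47.5 FPKM in oil. Mrpl18 and Mrpl36 completed the highest 5, and both encode large subunit proteins of bacterial descent. Mrpl18 stood at 146 ± 16.3 FPKM in tamoxifen and 136 ± 21.1 FPKM in oil, and Mrpl36 at 139 ± 29.9 FPKM in tamoxifen and 133 ± 36.8 FPKM in oil. Mrpl4 and Mrps16 lay within 1 SD of each other, as did Mrpl18 and Mrpl36, whereas the steps between Mrpl42 and Mrpl4 and between Mrps16 and Mrpl18 were larger than the SD over 6 libraries of either gene. The 3 lowest overlapped in their spread. They were Mrpl53 at 4.29 ± 2.78 FPKM in tamoxifen and 4.94 ± 2.22 FPKM in oil, Mrps17 at 4.45 ± 0.950 FPKM in tamoxifen and 4.51 ± 0.972 FPKM in oil, and Mrps5 at 3.70 ± 0.205 FPKM in tamoxifen and 4.67 ± 0.653 FPKM in oil.

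**Figure D1:**
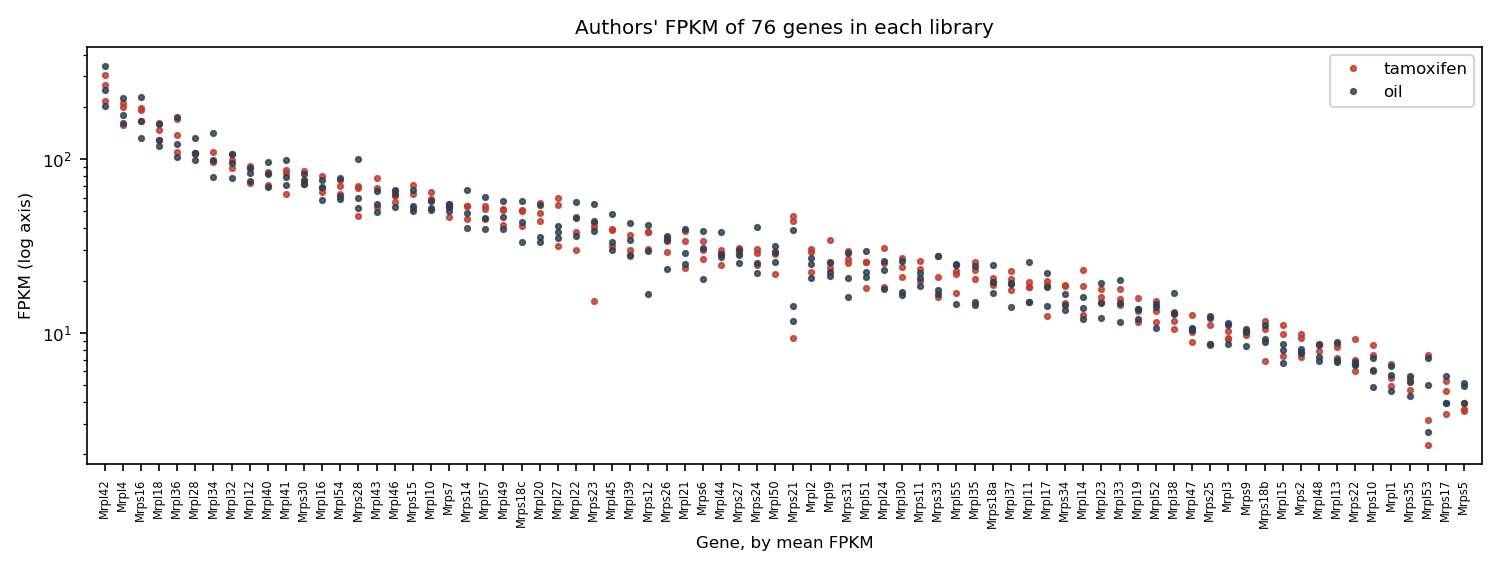
The authors' FPKM of the 76 genes in each library on a log axis, ordered by the mean over 6 libraries; red points are the 3 tamoxifen libraries and dark points the 3 oil libraries. Points of both groups overlap for most genes along the range from Mrpl42 to Mrps5, though not for Mrpl10, and Mrps21, Mrps23 and Mrpl53 have the widest spread.

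The order between genes depended on the length used. The length behind the authors' FPKM was more than 2 times the median coding transcript of the basic annotation in 36 of the 76 genes. Mrpl33, for which the authors' length was 10219 bases and the median coding transcript 478, ranked 57 by FPKM and 1 by CPM per kilobase of that transcript. Mrps17 (13836 against 868 bases) ranked 75 and 32, and Mrps16 (566 against 2572 bases) ranked 3 and 51. Mrpl42, Mrpl4, Mrpl18 and Mrpl36 were within the first 7 on both scales, and Mrps5 was last on both. The fold between the 90th and the 10th percentile of the members was 11.4 by FPKM and 6.85 per kilobase of transcript.

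No mitochondrial ribosomal protein gene passed the comparison of tamoxifen with oil. By edgeR's quasi-likelihood test, Benjamini-Hochberg adjusted over 10811 genes, 0 of 76 members were called, where 0.00925% of all genes tested were called (1 gene). All 76 members passed the filter on low counts. At an unadjusted p under 0.05 there were also 0 members, where 3.52% of all genes tested stood. DESeq2, which called 0.166% of all genes tested, and limma-voom called 0 members as well. In the authors' deposited table, no member had a p-value or q-value under 0.05. The log2 fold changes of the members ran from -0.48 (Mrps23) to 0.67 (Mrps21), with a median of 0.05, against a median of 0.00 over all genes tested. The estimate was higher in tamoxifen for 51 members (67.1%) and lower for 25, where 49.5% of all genes tested were higher.

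The estimates of these genes were narrower than those of most genes. The median SE of their log2 fold change was 0.22, against 0.29 over all genes tested. For 72 of the 76 (94.7%), the 95% interval of the log2 fold change lay within a 2-fold difference in either direction, against 59.8% of all genes tested, and for 30 it lay within 1.5-fold. The 4 genes whose interval reached past 2-fold were Mrps21 (-0.59 to 1.93), Mrps23 (-1.22 to 0.26), Mrpl14 (-0.27 to 1.02) and Mrpl53 (-1.44 to 1.05). Members had a median of 2696 counts over the 6 libraries.

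**Figure D2:**
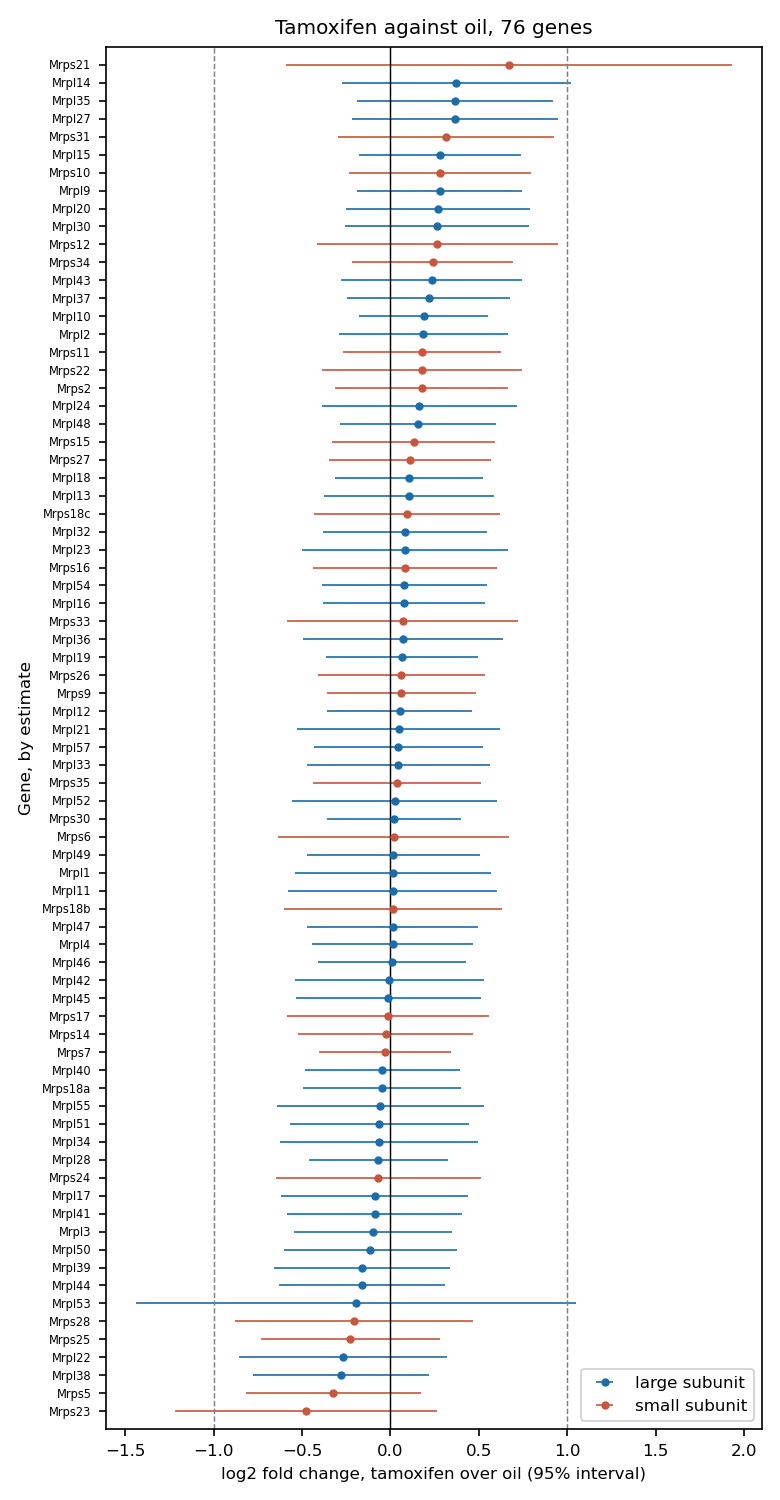
Log2 fold change of tamoxifen over oil for the 76 genes, ordered by estimate, with 95% intervals from edgeR's quasi-likelihood fit; blue marks the large and red the small subunit, and dashed lines mark a 2-fold difference. Every interval includes 0, and 72 of the 76 lie between the dashed lines.

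The groups failed to overlap in CPM in 2 members (2.63%), where 8.87% of all genes tested did not overlap: 1 lay above (4.52% of all genes) and 1 below (4.35%). Mrpl10 encodes the protein that anchors the stalk of the large subunit (chromosome 11, 97041560 to 97049213, plus strand, in the table's coordinates, build mm10). It stood at 126, 120 and 140 CPM in tamoxifen libraries 1, 2 and 3, against 109, 117 and 114 CPM in oil libraries 1, 2 and 3. All 3 tamoxifen libraries lay above all 3 oil libraries, and the log2 fold change was 0.19 (SE 0.17, edgeR adjusted p = 0.9995). Mrps5, which encodes a small subunit protein of bacterial descent (plus strand of chromosome 2, 127587222 to 127606829), was measured at 31.3, 32.8 and 31.9 CPM in the tamoxifen libraries, against 41.7, 43.0 and 35.5 CPM in the oil libraries. All 3 tamoxifen libraries lay below the oil libraries in CPM, with a log2 fold change of -0.32 (SE 0.22, edgeR adjusted p = 0.9995). By the authors' FPKM the groups of Mrps5 just overlapped, at 3.933 in tamoxifen library 2 and 3.931 in oil library 3. The noncoding gene Gm11574 on the opposite strand shares 14.1% of the exon bases of Mrpl10, and whether counting used strand was not given in the sources used here.

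Other listed genes of the stalk and the decoding centre, the parts of the ribosome that recruit translation factors and check the codon, had overlapping groups. Mrpl12, whose product forms the stalk and in human cells also binds the mitochondrial RNA polymerase, stood at 171, 131 and 175 CPM in the tamoxifen libraries and at 152, 134 and 172 CPM in the oil libraries. Its groups overlapped, with a log2 fold change of 0.05 (SE 0.19; 95% interval -0.36 to 0.46). Mrpl11, at the base of the stalk, stood at 54.3, 51.0 and 58.0 CPM in tamoxifen and at 42.9, 41.7 and 77.4 CPM in oil. Here oil library 3 lay above every other library and oil libraries 1 and 2 below, and the log2 fold change was 0.01 (SE 0.27). Mrps12, a protein of the decoding centre, stood at 95.01, 90.5 and 75.4 CPM in tamoxifen and at 70.9, 39.3 and 107 CPM in oil. The oil libraries of Mrps12 enclosed the tamoxifen libraries, with a log2 fold change of 0.26 (SE 0.31).

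Mrps18a, Mrps18b and Mrps18c are 3 paralogues of 1 bacterial protein, placed at different sites of the particle: the product of Mrps18a belongs to the large subunit and those of Mrps18b and Mrps18c to the small one. Mrps18c was the highest by FPKM, at 47.6 ± 5.36 in tamoxifen and 44.7 ± 11.9 in oil, Mrps18a followed at 19.7 ± 0.910 in tamoxifen and 20.4 ± 3.83 in oil, and Mrps18b was lowest at 9.73 ± 2.53 in tamoxifen and 9.71 ± 1.18 in oil (SD, n = 3 each). On this scale Mrps18c lay above Mrps18a, and Mrps18a above Mrps18b, in every library. The step between Mrps18c and Mrps18a depended on the length used: the length behind FPKM was 2159 bases for Mrps18c and 5377 bases for Mrps18a, against median coding transcripts of 638 and 752 bases. Per kilobase of that transcript, the mean CPM was 157 for Mrps18c, 144 for Mrps18a and 36.6 for Mrps18b. In the comparison of tamoxifen with oil, their log2 fold changes were -0.05 (SE 0.20) for Mrps18a, 0.01 (SE 0.28) for Mrps18b and 0.09 (SE 0.24) for Mrps18c. The noncoding gene Gm16279 on the opposite strand shares 30.5% of the exon bases of Mrps18b, and Gm43511 on the same strand shares 23.2% of those of Mrps18c.

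Among genes whose name departs from their place, Mrps30, whose product sits in the large subunit, was one of the steadiest members. It stood at 140, 115 and 116 CPM in tamoxifen and at 129, 117 and 119 CPM in oil, a log2 fold change of 0.02 (SE 0.17) and a 1.22-fold range over the 6 libraries. Mrps36, whose product is now known as a part of the 2-oxoglutarate dehydrogenase complex and not of the ribosome, had 4, 4 and 6 counts in the tamoxifen libraries and 7, 7 and 12 in the oil libraries, too few to be tested. Mrpl58, the peptidyl-tRNA hydrolase of the large subunit, is listed under its older symbol Ict1 and so is not among the 76. It stood at 140, 116 and 151 CPM in tamoxifen and at 110, 114 and 121 CPM in oil, with overlapping groups and a log2 fold change of 0.23 (SE 0.18).

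The members were also counted by subunit and by the descent of the protein. In the large subunit 33 of 50 genes had a higher estimate in tamoxifen (median log2 fold change 0.03), and in the small subunit 18 of 26 (median 0.06). Of the 48 genes with a bacterial homologue, 35 had a higher estimate (median 0.07), and of the 28 mitochondria-specific genes 16 (median 0.02). The share of higher estimates was lowest among mitochondria-specific large subunit genes, at 9 of 19 (median -0.01), whereas the bacterial part of the same subunit had 24 of 31 (median 0.07). No member of any of these groups passed, and the differences between the groups were not tested.

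A few genes varied far more between libraries than the rest, and were picked out here after their values were seen. The median member had a 1.67-fold range over the 6 libraries, and 9 exceeded 2-fold. Mrps21, which encodes a small subunit protein of bacterial descent, stood at 71.5, 14.4 and 77.1 CPM in tamoxifen and at 18.3, 60.2 and 23.8 CPM in oil. Its libraries formed a high and a low set that cut across both treatments, with a 5.35-fold range, and the log2 fold change was 0.67 (SE 0.57). Mrps23, a mitochondria-specific gene of the small subunit, stood at 35.0, 88.3 and 98.7 CPM in tamoxifen and at 97.0, 83.4 and 129 CPM in oil. Tamoxifen library 1 was the lowest of the 6 by a wide gap, and the log2 fold change was the lowest of all members, -0.48 (SE 0.34). Mrpl53 had 3.25 to 10.7 CPM in tamoxifen and 3.73 to 10.5 CPM in oil; the model Gm42688 on the same strand shares 88.0% of its exon bases, so its counts are uncertain.

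The members moved together from library to library within each treatment. Oil library 3 had the highest level of the 3 oil libraries in 67 of the 76 genes, and oil library 2 the lowest in 63. Among all genes tested, oil library 3 was the highest of its group in 37.9% and oil library 2 the lowest in 35.6%. In tamoxifen, library 2 was the lowest of its group in 58 of the 76 genes, against 35.7% of all genes tested. As a median over the members, log2 CPM relative to the mean of the 6 libraries was 0.16, -0.16 and 0.12 in tamoxifen libraries 1, 2 and 3, and -0.09, -0.28 and 0.27 in oil libraries 1, 2 and 3. The range within oil, from library 2 to library 3, therefore enclosed all 3 tamoxifen libraries.

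**Figure D3:**
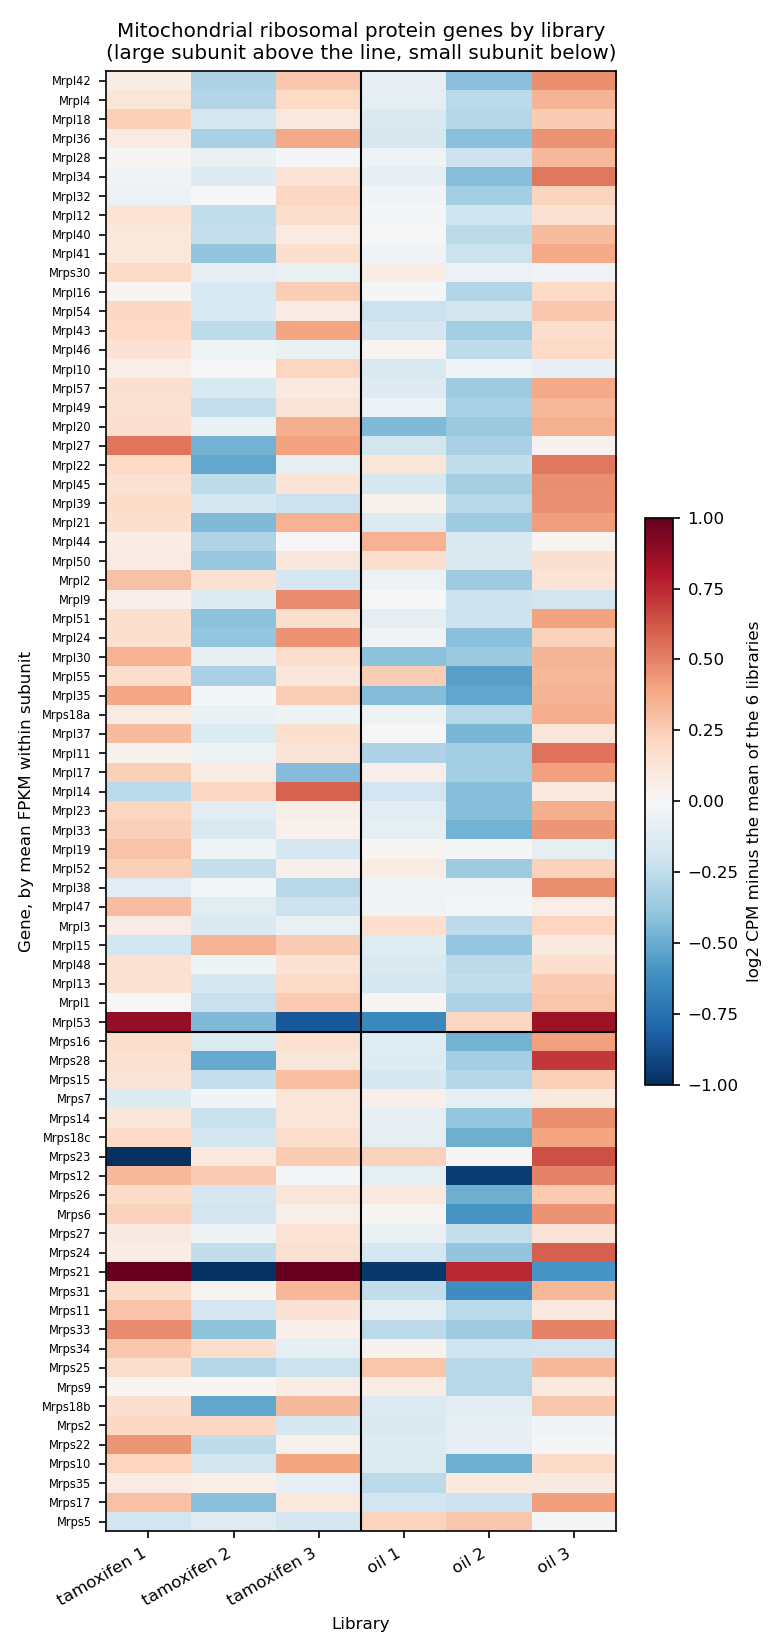
Log2 CPM of each of the 76 genes minus its mean over the 6 libraries, with the tamoxifen libraries left and the oil libraries right of the vertical line, and the large subunit above the horizontal line. The column of oil library 3 is mostly red and those of oil library 2 and tamoxifen library 2 mostly blue; Mrps21 goes against this pattern, with a low level in oil library 3 and a high one in oil library 2.

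Summed over the 76 genes, the share of all counts was 0.732%, 0.627% and 0.726% in the tamoxifen libraries and 0.656%, 0.574% and 0.789% in the oil libraries. The group means were 0.695 ± 0.0589% in tamoxifen and 0.673 ± 0.109% in oil (SD, n = 3 each), so the difference of 0.0223 percentage points was smaller than the SD of either group. Large and small subunit genes kept almost the same proportion in every library: the ratio of their summed counts was 2.48, 2.44 and 2.44 in tamoxifen and 2.44, 2.46 and 2.43 in oil.

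Other measures of the libraries moved with this shared level. The shortest 25% of all genes tested stood at 0.10, -0.08 and 0.11 (median log2 CPM relative to the mean of the 6 libraries) in the tamoxifen libraries and at -0.06, -0.18 and 0.19 in the oil libraries. The members are short, with a median length behind FPKM of 2723 bases, against 5106 over all genes tested. With the trend of each library with gene length removed, the median of the members was 0.12, -0.15 and 0.08 in tamoxifen and -0.06, -0.18 and 0.22 in oil, and oil library 3 was still the highest oil library in 64 of the 76 genes. The cytosolic ribosomal protein genes stood at 0.19, -0.17 and 0.24 in tamoxifen and at -0.23, -0.39 and 0.38 in oil on the same scale. Erythroid markers (6 of 6 in the table, mostly Hba-a1) summed to 200, 74.9 and 233 CPM in tamoxifen and to 136, 3.11 and 571 CPM in oil, and Hbb-bs, Hbb-bt and Alas2 were at 0 counts in oil library 2. The ILC1 and natural killer cell markers summed to 9934, 9544 and 11360 CPM in tamoxifen and to 9635, 9333 and 12660 CPM in oil. This sum was highest in oil library 3 and lowest in oil library 2, as was the members' share, but single markers of the list ran in opposite directions. Nkg7, a granule protein gene and the largest part of the sum, had 7632 CPM in oil library 3 and 3576 in oil library 2. Ncr1, Klrb1c and Klrk1 were also higher in oil library 3. Tbx21, which encodes T-bet, had 133 CPM in oil library 3 and 420 in oil library 2. Eomes, Il2rb and Prf1 were also higher in oil library 2. Oil library 3 was the highest and oil library 2 the lowest in the members' share of counts, in the shortest 25% of genes, in the cytosolic ribosomal protein genes, in the erythroid sum and in the sum of ILC1 and natural killer cell markers. In total counts oil library 2 was also the lowest, but oil library 1 was the highest and oil library 3 stood behind tamoxifen library 2. The part of gene length, erythroid RNA and cell composition in the shared level was not tested beyond the length correction given here.

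**Figure D4:**
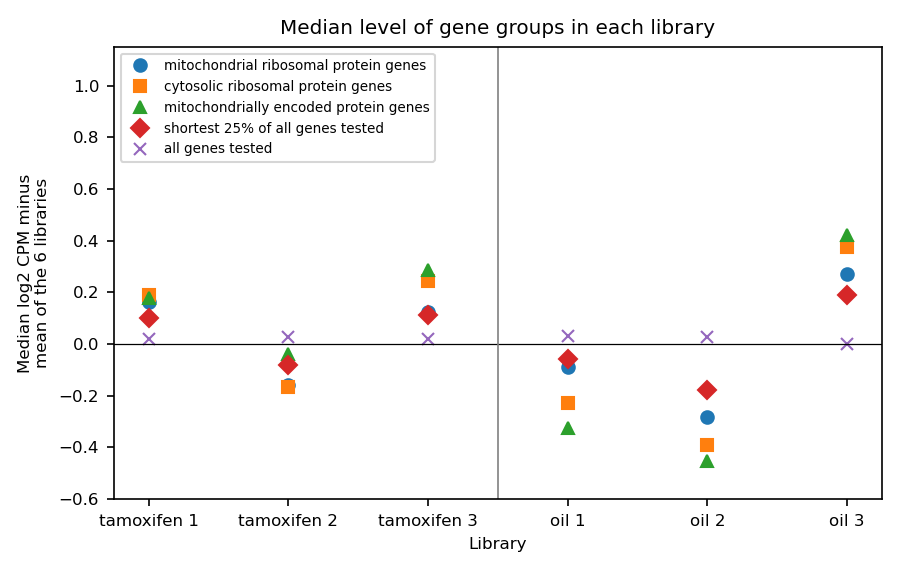
Median log2 CPM of 5 gene groups in each library, relative to the mean of the 6 libraries; tamoxifen libraries stand left and oil libraries right of the vertical line. Mitochondrial ribosomal protein genes run from -0.28 in oil library 2 to 0.27 in oil library 3, with cytosolic ribosomal protein genes and the shortest 25% of genes in nearly the same order, while all genes stay near 0.

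The balance of higher and lower estimates among the members depended on single libraries, and it turned without oil library 2 and without tamoxifen library 1. Without oil library 3, 67 of 76 members had a higher estimate in tamoxifen (median log2 fold change 0.21), where 49.0% of all genes did. Without oil library 2, 27 did (median -0.09), where 50.1% of all genes did. Without oil library 1, 40 were higher, where 49.3% of all genes were, and without tamoxifen library 3, 43, where 49.9% were. Without tamoxifen library 1, 33 were higher, where 47.5% of all genes were. The median of the members in that fit was -0.016, against -0.015 over all genes tested. In the fit without tamoxifen library 2, 62 were higher (median 0.14), where 48.9% of all genes were. With the length trend as an offset, 43 of 76 were higher (median 0.02), where 49.9% of all genes were. At an unadjusted p under 0.05 there were 5 members without oil library 3, where 8.02% of all genes tested stood, 2 without tamoxifen library 2 (4.97% of all genes) and 1 without oil library 2 (3.24% of all genes), and none of the 6 fits called a member after adjustment.

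**Figure D5:**
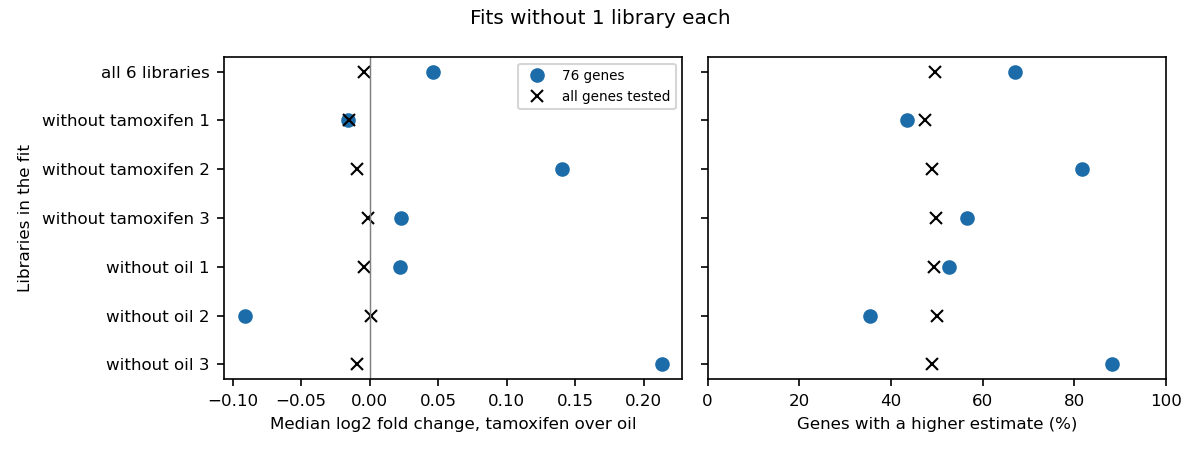
Left, the median log2 fold change of tamoxifen over oil in fits with all 6 libraries and without 1 library each, for the 76 genes (circles) and all genes tested (crosses); right, the percentage of genes with a higher estimate in tamoxifen. The circles run from -0.09 without oil library 2 to 0.21 without oil library 3, while the crosses stay near 0 on the left and between 47.5% and 50.1% on the right.

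The other genes of mitochondrial translation gave no call either. Of 5 ribosomal proteins with other names, 4 had higher and 1 a lower estimate in tamoxifen (median log2 fold change 0.05); Dap3, a GTP-binding protein of the small subunit, was at 69.6 ± 20.6 CPM in tamoxifen and 59.4 ± 13.7 in oil (0.23, SE 0.26), and Aurkaip1 was at -0.18 (SE 0.23). Of 15 translation factors, 3 were higher and 12 lower (median -0.15), with Guf1, a translational GTPase, at 0.37 (SE 0.22) and Gfm2, which recycles ribosomes, at -0.42 (SE 0.27). Of 26 genes of ribosome assembly and ribosomal RNA modification, 14 were higher and 12 lower (median 0.03). Ddx28, a helicase of large subunit assembly, stood at 53.0 ± 4.52 CPM in tamoxifen and 66.0 ± 5.58 in oil (-0.31, SE 0.20), and Mtg1, an assembly GTPase, was at -0.39 (SE 0.25). The groups did not overlap in 3 of the 26 (11.5%), these 2 and Mrm1, against 8.87% of all genes tested. Of 22 genes of mitochondrial aminoacyl-tRNA synthesis, most of which charge the tRNAs, 8 were higher and 14 lower (median -0.18). Mars2, for methionine, stood at 34.5 ± 2.89 CPM in tamoxifen and 22.9 ± 7.71 in oil (0.59, SE 0.30), and Yars2, for tyrosine, was at 0.40 (SE 0.27); these were the 2 genes of the 22 (9.09%) whose groups did not overlap. In all of these lists 0 genes were called by edgeR's quasi-likelihood test and 0 had an unadjusted p under 0.05.

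Upstream and downstream of the ribosome no listed gene passed either. Of 16 genes of mitochondrial transcription and RNA processing, 8 had higher and 8 had lower estimates, with a median log2 fold change of -0.02. The groups did not overlap in 1 of the 16 (6.25%), Elac2, against 8.87% of all genes tested. Elac2 was also the 1 gene of the 16 with an unadjusted p under 0.05 by edgeR's quasi-likelihood test, where 3.52% of all genes stood. Elac2, the nuclease that trims the 3′ end of tRNAs, stood at 52.3 ± 6.16 CPM in tamoxifen and 31.9 ± 6.28 in oil (0.71, SE 0.24; edgeR adjusted p = 0.9995, unadjusted p = 0.0133) with groups that did not overlap, and Trmt10c, a subunit of mitochondrial RNase P, was at 0.33 (SE 0.22). Of 7 tested nuclear regulators of mitochondrial genes, 4 were higher and 3 lower (median 0.02), with Myc at 0.20 (SE 0.18) and Gabpa, which encodes the DNA-binding subunit of GABP, at 0.14 (SE 0.23). The mitochondrially encoded proteins, the products of this ribosome, had higher estimates in 13 of 13 genes (median 0.23), against 49.5% of all genes tested. Among the 13, mt-Nd6 was at 0.40 (SE 0.24) and mt-Co1 at 0.26 (SE 0.20), and none passed. Their share of counts was 1.11%, 0.987% and 1.17% in tamoxifen and 0.689%, 0.779% and 1.25% in oil, so oil library 3 again lay above every tamoxifen library.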

How the data were processed

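The deposited data are a single series table with, per the file headers, whole-number counts and FPKM for each gene in each library; the counts are as deposited, and the authors made FPKM from them, since across the 7282 genes that reached 50 counts throughout, the length implied by count and FPKM varied by at most 1.8e-05 of itself between libraries. The p-values and q-values are those of the authors' deposited comparison. HISAT2, StringTie and mm10 are listed in the submitters' processing notes; the counter, annotation and strand setting were not given in the sources used here.

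Tests used edgeR's quasi-likelihood fit (version 4.0.16 under R 4.3.3; TMM factors, default expression filter by group, group as the only term, Benjamini-Hochberg adjustment over 10811 genes, threshold 0.05), which was checked on simulated data. CPM was computed with TMM-scaled library sizes. SEs and 95% intervals come from the F statistic and its degrees of freedom. A count of 0 allows a level of 3 counts, or 0.474 to 0.567 per library in CPM, for counting error only. PCR without molecular identifiers means that counts are not independent molecules. Exon overlaps, transcript lengths and neighbouring starts come from GENCODE M21, in which 57 of the 76 genes had the table's coordinates; 20 symbols turned into dates were restored by identifier.

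The members, lists and tests were chosen with earlier results of these data known. Named members were those past the threshold, those whose groups did not overlap (up to 8 per direction), the 5 highest and 3 lowest by FPKM, the Mrps18 paralogues, Mrps30, Mrps36, Mrpl58 and genes of the stalk and decoding centre; of each other list, the passing genes or else the 2 with the smallest p. Mrpl33, Mrps21, Mrps23, Mrpl14 and the promoter neighbours were named after their values were seen. The alternatives tried comprise upper-quartile and RLE factors, limma-voom (limma 3.58.1), DESeq2 1.42.0, no filter, 10 counts in every library of a group, the replicate number as a block, each library left out, limma on log2(FPKM + 1) and log2(FPKM + 0.1) with a filter (at least 1 FPKM in 3 libraries) and, with the pseudocount of 1, without it, and each library's trend with gene length as an offset.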

Additional observations from a re-analysis of the deposited data

How the results depend on the processing

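Across the 17 alternative fits, 0 members were called in each, and the median log2 fold change of the members ran from -0.09 to 0.21. The median level of the members in single libraries had a pooled SD of 0.23, which is not the spread of a difference between group means. The sign of the median log2 fold change turned without oil replicate 2 and without tamoxifen replicate 1. In the latter fit it was -0.016, against -0.015 over all genes tested. The members' share of counts differed by -0.0272 (without oil replicate 2) to 0.0805 percentage points (without oil replicate 3). The number of genes called in the whole table, 1 in the main comparison, was 18 with DESeq2, 6 without a filter, 0 with the replicate block, 0 with limma on log2 FPKM at either pseudocount and with no filter, and 0 to 6 with 1 library left out. Whether the replicate numbers pair the libraries could not be told from these data. The correlations of same-numbered deviations were -0.071, 0.266 and 0.164. Tamoxifen libraries 2 and 3 correlated best with their own number, while tamoxifen library 1 correlated best with oil library 3 (0.165). With the replicate block the median of the members was 0.07 (52 of 76 higher).

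Of the 16 named members, Mrpl10 (0.13 to 0.23) and Mrps5 (-0.41 to -0.27) kept their direction in every fit. These genes were named because their groups did not overlap in CPM, so the fits without 1 library had little room to turn their sign. Each of the other named members changed sign in at least 1 fit; the cause was not tested. Mrps12, at 0.26 in the main comparison, did so only without oil replicate 2 (-0.032), and Mrpl53, at -0.20, only without tamoxifen replicate 2 (0.004), tamoxifen replicate 3 (0.104) or oil replicate 3 (0.210). Mrpl4 was at 0.00 with upper-quartile factors, 0.00 without a filter and -0.045 with the length offset. Mrpl11 was at -0.001 with upper-quartile factors and -0.012 with the length offset. Mrpl42 was at 0.019 with limma-voom, 0.021 with the replicate block and 0.012 with limma on FPKM. Mrps18b was at -0.025 with limma-voom, -0.014 with the replicate block, -0.022 and -0.026 with limma on FPKM at pseudocounts of 1 and 0.1, and -0.011 with the length offset. Also with the length offset, Mrps17 was at 0.058, Mrps30 at -0.050 and Mrpl12 at -0.008. With 1 library left out the ranges were -0.142 to 0.356 (Mrpl11), -0.034 to 0.173 (Mrpl12), -0.001 to 0.272 (Mrpl18), -0.110 to 0.350 (Mrpl36), -0.112 to 0.199 (Mrpl4), -0.188 to 0.264 (Mrpl42), -0.892 to 0.210 (Mrpl53), -0.032 to 0.650 (Mrps12), -0.102 to 0.347 (Mrps16), -0.177 to 0.215 (Mrps17), -0.180 to 0.145 (Mrps18a), -0.157 to 0.229 (Mrps18b), -0.095 to 0.349 (Mrps18c) and -0.084 to 0.071 (Mrps30). Levels per kilobase of transcript and the share of summed FPKM (0.0086 percentage points) were added after the data were seen.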
